A study of Mus musculus with 10 samples.

Results

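The 6 genes Dnase1l3, Adgrl3, Arap2, Slc12a2, Stra6l and Abcb1a were followed in splenic type 2 conventional dendritic cells (cDC2) that lacked or kept Notch2. They were chosen, out of 19938 genes with a probe set of their own, as the largest falls in untreated Notch2-deficient cells that belong to no other gene group followed in the study. They were thus selected on their log2 intensities in untreated cells, and the untreated difference is given as a description, with no test. The arrays of mice given sheep red blood cells (SRBC) do not enter the falls that ranked them and carry the test, although the choice was made with results of all arrays known.

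The 4 groups were measured on 10 one-colour arrays. Notch2-11cKO mice carry CD11c-Cre and floxed Notch2 alleles, and WT mice were the controls. Spleens came from untreated mice or from mice given 200000000 SRBC, a particulate antigen that raises germinal centre responses, by the intraperitoneal route 24 hours earlier. Notch2-11cKO untreated and WT untreated had 2 arrays each, and Notch2-11cKO SRBC and WT SRBC had 3 each. CD11c-Cre acts wherever CD11c is expressed, so deletion is not limited to cDC2. Neither the sort gates nor the strain, the age or the number of mice behind an array are given in the labels, so p-values measure the spread between these arrays, which may be technical.

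Notch2 is a receptor whose ligands sit on neighbouring cells; after ligand binding its intracellular part is cut free and acts with the DNA-binding protein RBPJ to switch on target genes. In the mouse spleen, Notch2 signals are known to be needed for the ESAM-high cDC2 of the marginal zone bridging channels. Each of the 6 genes encodes a protein of a different kind. Dnase1l3 is a secreted DNase that digests DNA in microparticles and dying cells, and its loss is known to cause lupus-like disease in mice and people. Adgrl3 (latrophilin 3) is an adhesion G protein-coupled receptor known mostly from neurons, where it binds FLRT and teneurin proteins on other cells. Arap2 is a GTPase-activating protein for the small GTPase ARF6. Slc12a2 (NKCC1) is a sodium-potassium-chloride cotransporter that serves cell volume regulation. Stra6l (Rbpr2) is a receptor for retinol-binding protein, described in mouse liver and intestine, and Abcb1a encodes P-glycoprotein, a drug efflux pump.

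Facts of the whole series bear on the values below. Array medians over all genes were close, from 5.01 to 5.11 on the log2 scale. Precision is limited by how few arrays each group has. Pearson r across the brighter genes was 0.947 and 0.936 between Notch2-11cKO SRBC 3 and the others of its group, against 0.972 between those, and 0.928 and 0.929 between WT SRBC 1 and the other WT SRBC arrays, against 0.984. These arrays stand apart, and results are also given without them. Notch2 itself gave log2 intensities of 7.23 to 8.37 on Notch2-11cKO arrays and 7.09 to 8.14 on WT arrays. The Notch2-11cKO minus WT difference was 0.35 ± 0.21 after SRBC (adjusted p = 0.455, limma), so its mean was not lower on the arrays labelled Notch2-11cKO. Whether its probe set covers the part that Cre removes was not analysed here, so the labels are not checked by it. The mean log2 level of 12 cDC2 identity genes was 8.04 to 8.42 on Notch2-11cKO arrays and 8.77 to 9.06 on WT arrays, with 1 gene higher, 2 lower and 9 not past the threshold after SRBC. Clec4a4 and Cd4 are among these 12 and are also on the ESAM-high list used below. Their Notch2-11cKO minus WT differences were -2.91 and -0.56 after SRBC and -4.09 and -1.03 in untreated cells. They thus lower this mean level on Notch2-11cKO arrays, but are not the whole of its shift. The median difference over the 12 was -0.52 after SRBC and -0.56 in untreated cells. In untreated cells 0 of the 12 were higher, 3 lower and 9 not past the threshold.

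Promoters of 4 of the genes are shown because these genes were low together in Notch2-11cKO cells. Those of Dnase1l3 and Slc12a2 are not shown and were not searched for the letters given below. Each is the 250 bases before the most upstream annotated start, written 5′ to 3′ from RefSeq on GRCm38.p6, with every CG in capitals. Their positions are chr5:81020321-81020570 on the plus strand for Adgrl3, chr5:62766178-62766427 on the minus strand for Arap2, chr4:45848566-45848815 on the plus strand for Stra6l and chr5:8566841-8567090 on the plus strand for Abcb1a.
Adgrl3: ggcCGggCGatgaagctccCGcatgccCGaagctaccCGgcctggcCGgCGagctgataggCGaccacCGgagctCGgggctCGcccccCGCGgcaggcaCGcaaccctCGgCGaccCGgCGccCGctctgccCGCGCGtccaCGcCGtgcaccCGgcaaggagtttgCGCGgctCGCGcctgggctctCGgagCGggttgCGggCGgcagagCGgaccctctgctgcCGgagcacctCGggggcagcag
Arap2: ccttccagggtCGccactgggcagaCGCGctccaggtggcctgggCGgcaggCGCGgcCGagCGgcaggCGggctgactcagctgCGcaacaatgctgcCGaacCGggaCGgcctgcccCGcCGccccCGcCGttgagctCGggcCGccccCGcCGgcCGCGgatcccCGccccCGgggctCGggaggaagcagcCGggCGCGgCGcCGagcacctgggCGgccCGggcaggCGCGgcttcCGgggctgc
Stra6l: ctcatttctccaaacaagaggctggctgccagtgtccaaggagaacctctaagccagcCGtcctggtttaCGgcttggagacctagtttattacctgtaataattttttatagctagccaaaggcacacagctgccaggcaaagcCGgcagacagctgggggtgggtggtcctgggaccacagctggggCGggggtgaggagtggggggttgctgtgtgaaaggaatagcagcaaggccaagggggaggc
Abcb1a: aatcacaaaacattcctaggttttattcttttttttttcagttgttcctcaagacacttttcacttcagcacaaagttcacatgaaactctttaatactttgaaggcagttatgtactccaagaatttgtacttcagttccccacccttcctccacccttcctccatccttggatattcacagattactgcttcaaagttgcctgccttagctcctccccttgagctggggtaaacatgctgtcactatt

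No base composition was common to all 4 windows. Adgrl3 and Arap2 had 36 CG each and 76.8% and 80.8% G or C, whereas Stra6l had 4 CG and 56.4% and Abcb1a had 0 CG and 40.4%. The median over the windows of 27025 genes was 6 CG and 52.0%. The letters TGGGAA, found in RBPJ sites, occurred on either strand in none of the 4 windows and in 21.5% of all windows. The longer GTGGGAA, which holds the first, was in 5.4% of all windows and again in none of the 4. GGAAGT, of the kind that the myeloid factor PU.1 binds, was likewise absent here and present in 19.9% overall. No match says only that these letters are not in these windows.

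All 6 genes were lower in Notch2-11cKO SRBC than in WT SRBC cells, by 3.72-fold to 28-fold, on arrays whose values did not rank them. Each fell at an adjusted p of 0.000132 or less (limma, Benjamini-Hochberg over 19938 genes), and every Notch2-11cKO SRBC array lay below every WT SRBC array for all 6. Over all genes, 1.96% were called lower in this comparison and 10.4% had arrays that separated in this way. The median log2 difference of the 6 was -2.83, against -0.02 over all genes. No filter on dim genes was used, so each of the 6 was tested. Dnase1l3 had the largest fall of 17157 ranked genes after SRBC, Arap2 ranked 2, Abcb1a 4, Stra6l 9, Adgrl3 10 and Slc12a2 29.

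Dnase1l3, the secreted DNase, separated the genotypes most widely. Its log2 intensity was 3.93 and 4.81 in Notch2-11cKO untreated against 10.30 and 10.27 in WT untreated cells. After SRBC it was 5.10, 5.43 and 4.98 in Notch2-11cKO against 10.22, 9.93 and 9.78 in WT cells. The 2 genotypes did not come near each other on any array: the lowest WT SRBC value stood 4.35 above the highest Notch2-11cKO SRBC value. The difference was -4.81 ± 0.23 after SRBC (28-fold, adjusted p = 9e-07, limma), and -5.92 ± 0.29 in untreated cells (60.4-fold), where it is the largest fall of 17157 ranked genes. Errors of differences are standard errors of the fit. The order of the groups was WT untreated, WT SRBC, Notch2-11cKO SRBC and Notch2-11cKO untreated, and the lowest neighbours differed by less than the sum of their SDs (5.17 ± 0.23, n = 3, and 4.37 ± 0.62, n = 2).

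**Figure D1:**
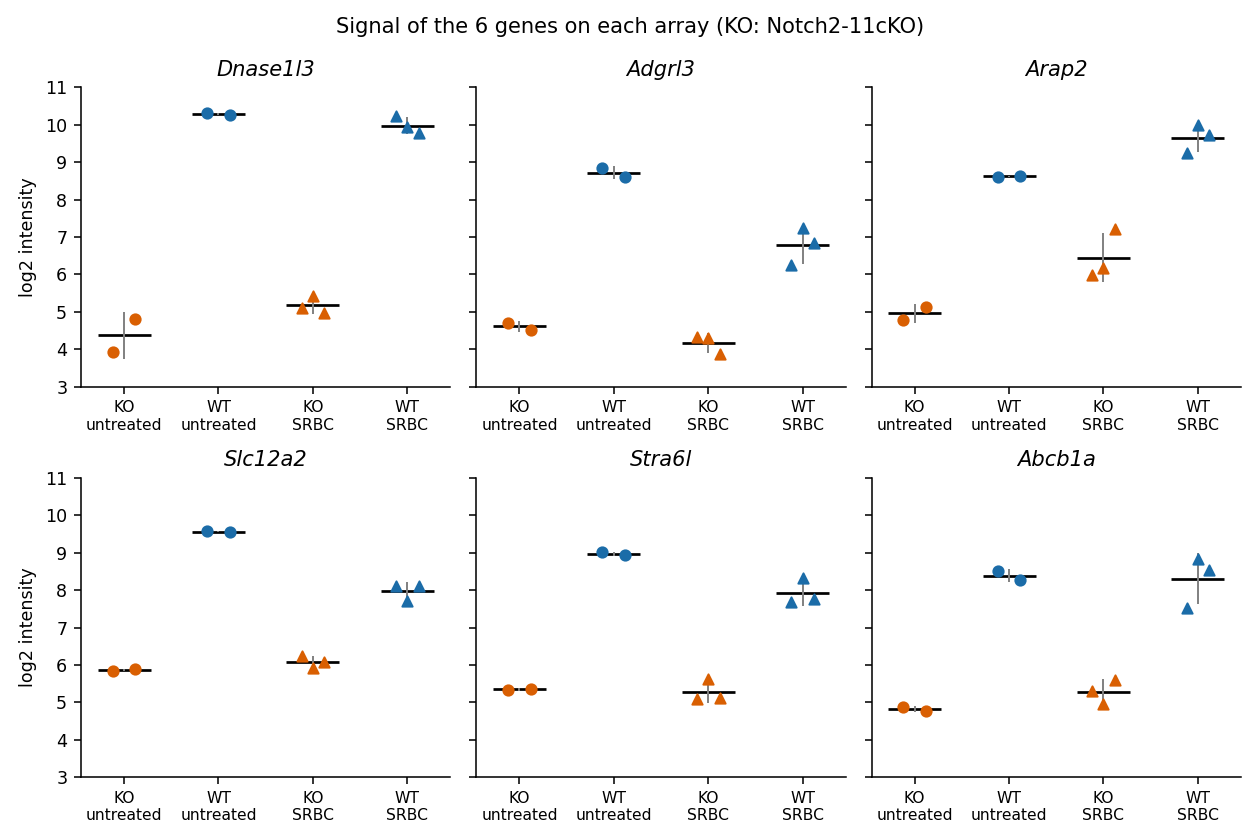
Log2 intensity (vertical axis) of the 6 genes on each array, by group (horizontal axis; KO is Notch2-11cKO, circles untreated, triangles SRBC). Black bars are group means and grey lines 1 SD; in every panel the WT arrays lie above the Notch2-11cKO arrays, and Dnase1l3 has the widest gap.

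Arap2, the ARF6 regulator, was the gene with higher signal after SRBC in both genotypes. It gave 4.77 and 5.14 in Notch2-11cKO untreated and 8.61 and 8.63 in WT untreated cells. After SRBC the values were 5.98, 6.16 and 7.20 in Notch2-11cKO and 9.24, 9.98 and 9.73 in WT cells. All 4 groups were separate, in the order WT SRBC, WT untreated, Notch2-11cKO SRBC, Notch2-11cKO untreated, and each step exceeded the sum of the SDs. Arap2 fell by 3.20 ± 0.30 between the genotypes after SRBC (9.2-fold, adjusted p = 1e-04, limma), and the untreated difference was -3.66 ± 0.37.

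The efflux pump gene Abcb1a was nearly level between SRBC and untreated WT cells. Its values were 4.88 and 4.76 in Notch2-11cKO untreated against 8.51 and 8.27 in WT untreated cells. After SRBC they were 5.31, 4.95 and 5.60 in Notch2-11cKO against 7.53, 8.83 and 8.54 in WT cells. The WT SRBC arrays overlapped the WT untreated ones, and no Notch2-11cKO array came within the WT range. The difference was -3.02 ± 0.30 after SRBC (8.09-fold, adjusted p = 0.000132, limma) and -3.57 ± 0.36 in untreated cells.

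Adgrl3 and Stra6l, the latrophilin and the retinol-binding protein receptor, shared a pattern in which WT SRBC cells lay between WT untreated and Notch2-11cKO cells. Slc12a2, described next, had it too, and Dnase1l3 had the same order with a smaller step between the WT groups (0.31). Adgrl3 gave 4.71 and 4.51 in Notch2-11cKO untreated against 8.85 and 8.59 in WT untreated cells, and 4.33, 4.30 and 3.86 in Notch2-11cKO SRBC against 6.26, 7.25 and 6.83 in WT SRBC cells. Stra6l gave 5.32 and 5.37 in Notch2-11cKO untreated against 9.01 and 8.94 in WT untreated cells, and 5.09, 5.62 and 5.11 in Notch2-11cKO SRBC against 7.67, 8.32 and 7.77 in WT SRBC cells. In both genes the WT groups were separate from each other. The Notch2-11cKO groups overlapped in Stra6l and were 0.44 apart in Adgrl3. After SRBC the genotypes differed by -2.61 ± 0.24 for Adgrl3 (6.12-fold, adjusted p = 7.3e-05, limma) and by -2.65 ± 0.21 for Stra6l (6.28-fold, adjusted p = 3.09e-05).

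Slc12a2, the chloride importer, had the smallest difference of the 6 after SRBC. Its arrays gave 5.84 and 5.88 in Notch2-11cKO untreated against 9.57 and 9.55 in WT untreated cells. After SRBC they gave 6.24, 5.93 and 6.08 in Notch2-11cKO against 8.12, 7.71 and 8.11 in WT cells. The 4 groups did not overlap, although the Notch2-11cKO groups were only 0.22 apart. Slc12a2 fell by 1.90 ± 0.17 between the genotypes after SRBC (3.72-fold, adjusted p = 6.87e-05, limma), and the untreated difference was -3.70 ± 0.21.

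**Figure D2:**
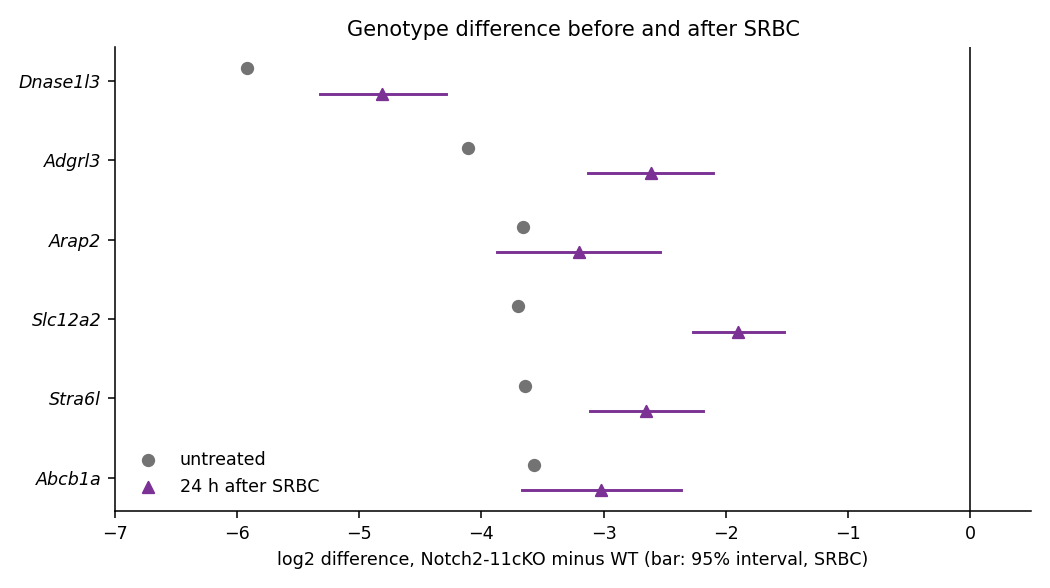
Log2 difference between Notch2-11cKO and WT (horizontal axis) for each gene, in untreated cells (grey circles, which chose the genes) and 24 hours after SRBC (purple triangles, with 95% intervals of the fit). Every interval after SRBC lies below 0, from Dnase1l3 (-5.32 to -4.29) to Slc12a2 (-2.27 to -1.52).

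The fall after SRBC held when a change of at least 2-fold was required (limma's treat). Only 14 genes passed as lower under that requirement, and all 6 were among them, with Slc12a2 at the highest adjusted p of the 6 (0.0298). The arrays that stand apart moved some sizes. WT SRBC 1 had the lowest WT SRBC value of Adgrl3, Arap2, Stra6l and Abcb1a, and Notch2-11cKO SRBC 3 had the highest Notch2-11cKO value of Arap2 and Abcb1a. Without both arrays the difference was -3.78 for Arap2, -3.56 for Abcb1a, -2.72 for Adgrl3, -2.69 for Stra6l, -1.82 for Slc12a2 and -4.59 for Dnase1l3, and all 6 passed. The mean log2 level of 21 immediate-early and dissociation stress genes varied among the SRBC arrays too. It was 9.49, 9.22 and 8.64 on Notch2-11cKO SRBC 1, 2 and 3, against 9.09, 8.64 and 8.70 on WT SRBC 1, 2 and 3, so each array that stands apart differs from the others of its group in this score. With the score as a covariate the difference was -2.77 for Arap2, -2.72 for Abcb1a and -4.95 for Dnase1l3, and all 6 passed.

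In the untreated cells that defined them, the 6 genes held places 1, 2, 4, 6, 7 and 8 among the falls of the ranked genes. The arrays of the genotypes separated for each, as they did in 26.8% of all genes. For the 6 that separation was favoured by their choice as large falls and is no test. Clec4a4, the cDC2 lectin DCIR2, and Cd7 took places 3 and 5 (-4.09 and -3.69) and are not among the 6. Abcb1a, the last member (-3.57), stood just before Havcr2, which encodes the inhibitory receptor TIM-3 (-3.56), Ube2e2 (-3.40), Scn3a (-3.39) and Ffar2 (-3.33). After SRBC, Havcr2 differed by -2.89, Ube2e2 by -2.29, Scn3a by -1.35 and Ffar2 by -1.33.

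The genotype difference was smaller after SRBC than in untreated cells for all 6, by 0.46 in Arap2, 0.56 in Abcb1a, 0.99 in Stra6l, 1.11 in Dnase1l3, 1.5 in Adgrl3 and 1.80 in Slc12a2 (log2). Without Notch2-11cKO SRBC 3 and WT SRBC 1 that narrowing was 0.02 for Abcb1a and turned to -0.12 for Arap2. No test is given for this or for the SRBC responses, because untreated arrays chose the genes, and that choice favours low Notch2-11cKO and high WT values among them. In Notch2-11cKO cells the difference between SRBC and untreated was -0.44 ± 0.26 for Adgrl3, 0.22 ± 0.19 for Slc12a2, -0.07 ± 0.23 for Stra6l, 0.80 ± 0.26 for Dnase1l3, 0.46 ± 0.33 for Abcb1a and 1.49 ± 0.34 for Arap2. In WT cells it was -1.94 ± 0.26 for Adgrl3, -1.58 ± 0.19 for Slc12a2, -1.05 ± 0.23 for Stra6l, -0.31 ± 0.26 for Dnase1l3, -0.09 ± 0.33 for Abcb1a and 1.03 ± 0.34 for Arap2. The genes thus divided in WT cells into Adgrl3, Slc12a2 and Stra6l, with lower signal after SRBC, Dnase1l3 and Abcb1a, whose differences were no larger than -0.31 ± 0.26, and Arap2, with higher signal. The immediate-early and stress score also moved with treatment. It was 8.64 to 9.49 in Notch2-11cKO SRBC against 10.06 to 10.16 in Notch2-11cKO untreated cells, and 8.64 to 9.09 in WT SRBC against 10.28 to 10.42 in WT untreated cells. With that score as a covariate the WT difference became -1.16 for Arap2 and -1.57 for Abcb1a, and 0.41 for Dnase1l3. SRBC and untreated arrays do not overlap in this score, so the fit can hardly separate it from treatment. These 3 values are therefore loosely determined, and no direction of response is read from them. The part of this score in the treatment differences was not tested further.

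**Figure D3:**
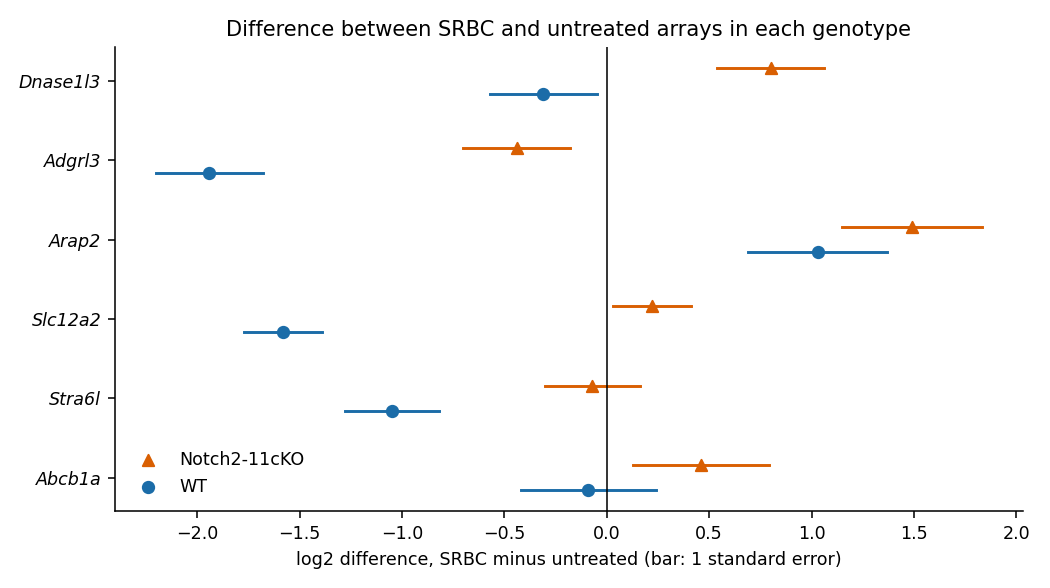
Log2 difference between SRBC and untreated arrays (horizontal axis) for each gene in Notch2-11cKO (orange triangles) and WT cells (blue circles), with 1 standard error of the fit. Arap2 lies above 0 in both genotypes, whereas Adgrl3, Slc12a2 and Stra6l lie between -0.44 and 0.22 in Notch2-11cKO and between -1.94 and -1.05 in WT cells.

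Likeness of pattern was measured over the 10 arrays as the root mean square difference between log2 values, each gene centred on its own mean, so that a small value means the same shape and size. Adgrl3 and Stra6l were 0.39 apart, Stra6l and Slc12a2 0.44, and Arap2 and Abcb1a 0.60. Arap2 was 1.31 from Adgrl3, and Dnase1l3 was between 1.14 and 1.43 from each of the other 5. Outside the 6, Ube2e2 was the gene most like Stra6l (0.36) and Slc12a2 (0.42), Havcr2 the most like Abcb1a (0.32), and Clec4a4 stood 0.48 from Adgrl3 and 1.14 from Dnase1l3. Asb2 was 0.45 from Slc12a2, Klri2 0.50 from Abcb1a, and Havcr2 and Il1r2 were 0.72 and 0.73 from Arap2. The median over all ranked genes lay between 1.43 and 2.65, depending on the gene. The mean profile of the 6 was nearest to Havcr2 (0.37), Clec4a4 (0.40) and Ube2e2 (0.56). All these profiles share the same arrays and the same genotype difference, and no p is attached.

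Other genes tied to Notch2 in cDC2 varied widely in their difference after SRBC. Clec4a4 fell by 2.91 ± 0.29 in Notch2-11cKO SRBC relative to WT SRBC (adjusted p = 0.000146, limma), close in size to Abcb1a and Stra6l. The Notch target Hes1, by contrast, gave -0.09 ± 0.21 after SRBC (adjusted p = 0.892), with 4.87, 5.67 and 5.16 in Notch2-11cKO and 5.50, 5.29 and 5.17 in WT cells, while it fell by 2.60 ± 0.26 in untreated cells (adjusted p = 0.000143). Dtx1, a regulator of Notch signalling, had -1.09 ± 0.27 after SRBC (adjusted p = 0.0403), and Esam -1.15 ± 0.27 (adjusted p = 0.0286). The call for Dtx1 ended without any of 7 single arrays (adjusted p = 0.0621 to 0.108): WT SRBC 1 or 3, either Notch2-11cKO untreated array or any Notch2-11cKO SRBC array. That for Esam ended without any of 6 (adjusted p = 0.0514 to 0.099): either WT untreated array, WT SRBC 2 or any Notch2-11cKO SRBC array. Cd4 gave -0.56 ± 0.18 (adjusted p = 0.113). Of 17 Notch pathway genes, 1 was lower and none higher after SRBC, and 2 were lower and 1 higher in untreated cells.

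After SRBC, the genes of the ESAM-low cDC2 state were higher in Notch2-11cKO than in WT cells as a whole list, and the lists of related cells only in part. In this comparison 3.36% of all genes were higher and 1.96% lower. All 12 ESAM-low genes were higher in Notch2-11cKO SRBC cells, with a mean log2 level of 9.20 to 9.39 against 6.38 to 6.59 in WT SRBC cells. All 12 were also higher in untreated cells, at 9.69 to 9.8 in Notch2-11cKO against 6.02 to 6.36 in WT. Of 16 macrophage markers 10 were higher (7.28 to 7.62 in Notch2-11cKO SRBC, 6.0 to 6.62 in WT SRBC), of 11 monocyte markers 6 (7.38 to 7.77 and 6.12 to 6.40) and of 8 plasmacytoid dendritic cell markers 3 (6.53 to 6.89 and 6.02 to 6.24), none lower. The monocyte list shares Ccr2, Csf1r, Cx3cr1 and Lyz2 with the ESAM-low list. These shared genes were all among the higher monocyte markers, so the monocyte count is not separate from the ESAM-low count. Of 8 genes listed as ESAM-high, 4 were lower and 2 higher. The higher ones were Cd226 and Clec12a, which is also on the ESAM-low list. Of 12 cDC1 markers 3 were higher and 3 lower, of 11 B cell markers 0 and 2, of 10 T cell markers 0 and 1, of 11 NK cell markers 0 and 2, and of 11 neutrophil markers 1 and 0. No value in the table is 0. The part of these cell types in the fall of the 6 genes was not tested. In sorted bulk samples, fewer cells that express a gene and less RNA per cell cannot be told apart.

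Taken over all their lists, the relatives of the 6 genes had a median difference between Notch2-11cKO and WT near 0. For these relatives, rises and falls are those of Notch2-11cKO relative to WT cells. Over 7 lists of family and pathway genes, 176 genes besides the 6 were measured after SRBC, of which 7 were lower and 17 higher (3.98% and 9.66%, against 1.96% and 3.36% of all genes). In untreated cells 4 were lower and 15 higher (2.27% and 8.52%, against 2.16% and 2.95%). The median difference of these relatives was 0.02 after SRBC and 0.03 in untreated cells, beside -0.02 and -0.024 over all genes. The lists were not alike. After SRBC the median was 0.64 for nucleic acid sensors and 0.38 for nucleases, and between -0.07 and 0.04 for the other lists. In untreated cells it was 0.09 for the sensors and 0.21 for the nucleases. With 1 array left out, the 7 became 1 without Notch2-11cKO SRBC 1 or WT SRBC 2, 2 without WT SRBC 3, 3 without Notch2-11cKO SRBC 2 and 4 without either WT untreated array. The 15 became 7 without WT untreated 1 or Notch2-11cKO untreated 2 and 9 without the other untreated array of either genotype, and the 4 became 2 without WT untreated 1, WT untreated 2 or Notch2-11cKO untreated 1. At a required change of at least 2-fold, Pld3, Tlr8 and Abca9 passed as higher after SRBC and none passed as lower.

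**Figure D4:**
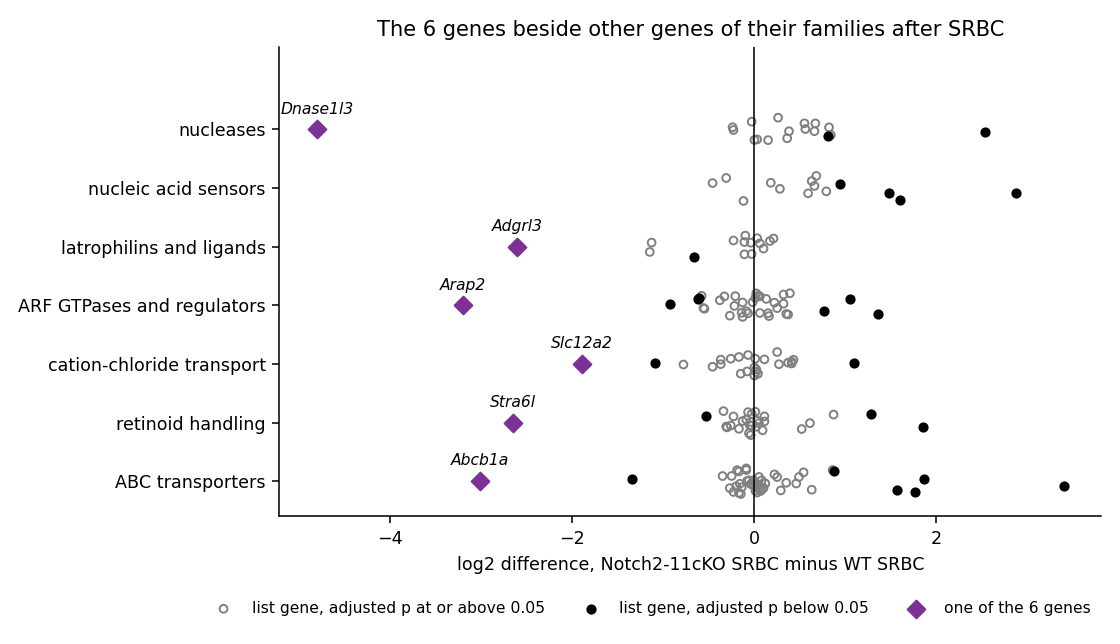
Log2 difference between Notch2-11cKO SRBC and WT SRBC (horizontal axis) of the 6 genes (purple diamonds) and of the other measured genes of their family or pathway lists (black, adjusted p below 0.05; open, not). The diamonds lie between -4.81 and -1.90, left of every other gene of their lists. The 6 were chosen among all genes for large untreated falls and the relatives by name. That choice favours this position, so it is no test of the families.

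Among 17 nucleases, 2 were higher and none lower after SRBC, as in untreated cells. Pld3, a lysosomal exonuclease, rose by 2.53 ± 0.20 (adjusted p = 3.26e-05, limma). Dnase1l1, the closest called relative of Dnase1l3 by family, rose by 0.81 ± 0.20 (adjusted p = 0.0399), a call lost without any 1 of 7 arrays (adjusted p = 0.0704 to 0.091): either WT untreated array, any WT SRBC array, or Notch2-11cKO SRBC 1 or 3. Dnase1 (0.15 ± 0.12, adjusted p = 0.611) and Dnase2a (0.82 ± 0.22, adjusted p = 0.0598) did not pass. Of 14 sensors of nucleic acids, 4 were higher after SRBC, led by Tlr8 (2.88 ± 0.31, adjusted p = 0.000247). In untreated cells 1 was higher and 1 lower.

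Among 14 latrophilins and ligands 1 was lower in each comparison: Adgrl1, the nearest relative of Adgrl3 that passed, by -0.66 ± 0.15 (adjusted p = 0.0239, limma) after SRBC. Its call was lost without WT SRBC 1 or 2 or Notch2-11cKO SRBC 1 or 3 (adjusted p = 0.0524 to 0.0654). The ligand gene Flrt3 gave -1.15 ± 0.33 and did not pass (adjusted p = 0.0777). Among 35 genes of ARF GTPases and their regulators 3 were higher and 3 lower after SRBC, and 4 and 1 in untreated cells. Arap1, a relative of Arap2, rose by 1.05 ± 0.16 (adjusted p = 0.0027), whereas Arap3 gave 0.04 ± 0.13 (adjusted p = 0.919). Acap1, another ARF6-directed GTPase-activating protein, fell by 0.93 ± 0.20 after SRBC (adjusted p = 0.0192), a call lost without WT SRBC 2 or 3 or Notch2-11cKO SRBC 1 (adjusted p = 0.0604 to 0.078). In untreated cells Acap1 fell by 2.62 ± 0.24 (adjusted p = 1e-04).

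Among 24 genes of cation-chloride transport and its control, 1 was higher and 1 lower in each comparison. The lower one was Wnk1, the kinase upstream of Slc12a2 in the volume-sensing cascade, with log2 intensities of 10.42, 10.29 and 10.22 in Notch2-11cKO SRBC against 11.51, 11.41 and 11.28 in WT SRBC cells (-1.09 ± 0.14, adjusted p = 0.000948, limma). Among 28 retinoid genes 2 were higher and 1 lower after SRBC, and 3 and 0 in untreated cells. Aldh1a2, which makes retinoic acid, rose by 1.85 ± 0.26 after SRBC (adjusted p = 0.00165), while Stra6, the better known retinol-binding protein receptor, gave -0.04 ± 0.12 (adjusted p = 0.919).

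Of 44 ABC transporters 5 were higher and 1 lower after SRBC, and 4 and 0 in untreated cells. Abca9 rose by 3.40 ± 0.30 and Abca6 by 1.57 ± 0.14 (adjusted p = 6.24e-05 and 5.61e-05, limma). The lower one was Abcb1b, the other mouse P-glycoprotein gene, named for its kinship after its values were seen. It gave 6.19, 6.22 and 6.70 in Notch2-11cKO SRBC against 6.92, 8.17 and 8.08 in WT SRBC cells, without overlap (-1.35 ± 0.31, adjusted p = 0.0257). The call was lost without WT SRBC 2 or 3 or Notch2-11cKO SRBC 1 or 2 (adjusted p = 0.0934 to 0.0968). In untreated cells Abcb1b did not pass (-0.79 ± 0.37, adjusted p = 0.372). Abcb1a and Abcb1b are close copies with a probe set each, and cross-hybridisation between them was not tested.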

How the data were processed

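Sorted splenic cDC2 were profiled on one-colour arrays with biotin-labelled RNA, per the labels' protocols. The deposited values are linear intensities per probe set, normalized between arrays by a method not given in the sources used here; they came without detection calls, so whether a low signal was above background was not tested. The deposited table has 28853 probe sets, of which 21789 carried 1 gene symbol, 1621 several and 5443 none. Each of 19938 symbols was represented by its probe set of highest mean log2 intensity, and all levels here are log2 of the authors' intensities. Each of the 6 genes has 1 probe set, so levels are compared between arrays and not between genes.

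One linear model over the 4 groups was fitted with limma 3.58.1 in R 4.3.3 (lmFit, eBayes with a mean-variance trend). P-values were adjusted by Benjamini-Hochberg over 19938 genes, with a threshold of 0.05. Arrays were grouped by their titles. Figures used Python 3.11.15 and matplotlib 3.10.9. The fit was tested on simulated data with 200 changed genes. An exact permutation of 3 against 3 arrays cannot go below p = 0.1 and was not used.

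The 6 genes and all gene lists were chosen with earlier results of these data known. Genes named in the text are the 6, the 3 nearest in pattern to each, the largest untreated falls and the 4 next below, family genes past the threshold (up to 4 by p) with a few named relatives that were picked by kinship after their values were seen, and 6 Notch or cDC2 genes. Predicted genes, small RNAs, receptor segments and similar were left out of rankings (2781 genes). Alternatives changed the probe set rule, the filter, the normalization, the variance model, the weights, the arrays, the block and the required fold. Promoter sequences are from RefSeq.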

Additional observations from a re-analysis of the deposited data

Results flagged for a closer look

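The Notch target Hes1 was the 1 gene, of 34 named genes outside the 6 that were tested, whose response to SRBC differed between the genotypes. Its mean log2 intensity was 5.23 in Notch2-11cKO SRBC against 4.81 in Notch2-11cKO untreated cells, and 5.32 in WT SRBC against 7.41 in WT untreated cells. The larger change was thus the lower signal in WT cells. Both Notch2-11cKO untreated values (4.78 and 4.83) lay below the lowest array median over all genes (5.01). Whether Hes1 could have been measured lower there was not tested. The Notch2-11cKO response minus the WT response was 2.51 (adjusted p = 0.0486, limma, Benjamini-Hochberg over all genes). The call was lost on leaving out any 1 of 8 arrays, all but WT SRBC 1 and Notch2-11cKO SRBC 1 (adjusted p = 0.0538 to 0.441). Over all 21 alternatives, these included, it passed in 8, and the adjusted p ranged between 0.00288 and 1.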

How the results depend on the processing

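All 6 genes stayed lower in Notch2-11cKO SRBC than in WT SRBC and past the threshold in each of 23 alternatives, with the difference between -4.95 and -4.59 for Dnase1l3, -2.87 and -2.38 for Adgrl3, -3.78 and -2.77 for Arap2, -2.03 and -1.80 for Slc12a2, -2.82 and -2.45 for Stra6l and -3.56 and -2.72 for Abcb1a. Counts over all genes moved more, and the cause was not tested. After SRBC the 391 lower genes became 686 with array weights, 200 with only the groups compared, 14 at a required change of at least 2-fold and 1091 without both WT SRBC 1 and Notch2-11cKO SRBC 3, and 201 to 546 with 1 array left out (201 and 227 on omitting Notch2-11cKO SRBC 1 or 2, 236 and 251 on omitting WT SRBC 2 or 3). The 670 higher genes became 427 with only the groups compared, 74 at 2-fold and 1273 without both arrays, and 448 to 764 with 1 left out. In untreated cells the 430 lower genes became 828 with weights, 867 with only the groups compared, 39 at 2-fold and 880 without both arrays, and the 589 higher ones 994, 1099, 105 and 1116. With 1 array left out they were 144 to 608 and 255 to 782, and leaving out any untreated array brought them to at most 241 lower and 320 higher. Of the untested values, the untreated difference of Dnase1l3 was -5.48 without Notch2-11cKO untreated 1 and -6.35 without Notch2-11cKO untreated 2. The difference in response was 0.02 for Abcb1a and -0.12 for Arap2 without both arrays that stand apart. With the immediate-early score as a covariate the Notch2-11cKO response was 0.08 for Arap2 and -0.49 for Abcb1a, values that are loose because the score hardly separates from treatment. With the replicate block, 502 genes were lower and 817 higher after SRBC, and all 6 genes passed. Whether the replicate numbers pair the arrays cannot be told from the values, because deviations from a mean of 3 arrays depend on each other. Deviations of same-numbered Notch2-11cKO SRBC and WT SRBC arrays correlated at 0.48, -0.22 and 0.40. Across numbers, Notch2-11cKO SRBC 2 went with WT SRBC 1 (0.23) and Notch2-11cKO SRBC 3 with WT SRBC 2 (0.41), whereas Notch2-11cKO SRBC 3 and WT SRBC 1 were opposed (-0.51). The immediate-early score followed the same split, higher on Notch2-11cKO SRBC 1 and 2 and WT SRBC 1 than on the other SRBC arrays; its part in it was not tested. Detection above background was not analysed here, so whether the low Notch2-11cKO values are above it was not tested.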
